A study of Mus musculus with 16 samples.

Results

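The loss of Neurog3 from the intestinal epithelium was examined in the duodenum alone, in 8 of the 16 RNA-seq libraries of the series, chosen by the tissue given in the labels. The mutant group held 4 male C57BL/6N mice of genotype Neurog3f/f; Villin-CreERT2 and the control group 4 males of genotype Neurog3f/f, so that the floxed alleles were common to both groups. CreERT2 is a recombinase that enters the nucleus only with tamoxifen, and the Villin promoter limits it to the epithelial lining of the gut. The transgene was in mutants only, so effects of CreERT2 itself cannot be told apart from those of Neurog3 loss. All mice ate a high fat diet and were sampled 5 weeks after tamoxifen, and each gave 1 duodenum and 1 ileum library. Mice are named by a letter for the genotype and their number in the labels: M136, M167, M168 and M177 are the mutants, and C133, C134, C151 and C154 the controls. The libraries were made from RNA of the piece of gut with all its cell types, so fewer cells of a type and less RNA per cell cannot be told apart.

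Enteroendocrine cells are scattered hormone-secreting cells of the gut epithelium. They arise in the crypts from secretory progenitors in which the transcription factor Neurog3 switches on Neurod1, Rfx6, Pax4 and other regulators, and each mature type makes its own set of peptides or serotonin. The duodenal types sense fat, sugar, amino acids and acid in the lumen, and their products act on the pancreas, the gallbladder, gut movement and appetite. The exocrine pancreas lies against the duodenum and empties its enzymes into it, so pieces of pancreas can travel with duodenal tissue at dissection.

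The 8 libraries held 45.3 to 67.2 M counts. The tissue label was checked with the bile acid binding gene Fabp6, a marker of the ileum, which stood at or below 0.161 counts per M (CPM) in every duodenum library against 382 to 2030 CPM in the ileum libraries of the same mice. Levels below are in CPM, and folds are log2 fold changes of mutant over control. The words rose and fell are kept for genes with an adjusted p under 0.05 (edgeR's quasi-likelihood test, Benjamini-Hochberg over the 17611 genes tested).

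Libraries stood apart within each genotype by their share of exocrine pancreas transcripts. The 12 pancreas genes of the marker list took 2.24 and 1.53% of all counts in controls C133 and C151, but 0.00677 and 0.00702% in controls C134 and C154. Among mutants they took 0.679 and 3.2% in M136 and M168, and 14 and 13.9% in M167 and M177. The groups therefore overlapped in range, while both extremes fell on opposite genotypes. The chymotrypsinogen gene Ctrb1 stood at 3570, 0.228, 2290 and 0.0167 CPM in C133, C134, C151 and C154, and at 1190, 30500, 6460 and 29800 CPM in M136, M167, M168 and M177. None of the 12 genes passed edgeR's quasi-likelihood test, none had an unadjusted p under 0.05, limma-voom called none and DESeq2's Wald test called 1 higher, although their median log2 fold change was 3.10. That median was 0.11 with the pancreas score, the mean log2 CPM of the 12 genes, as a covariate. It was 0.03 in the 4 libraries left without C134, C154, M167 and M177. The first value was bound to be small, as the score is made of these genes. The second left out the libraries with the extreme shares, so neither value tests the 12 genes. Other tissue varied too: Cr2, a complement receptor of lymphoid follicles, was at 5.8 CPM in C134 and 11.1 CPM in C154, where no other library exceeded 1.5 CPM, and Ins2, the islet insulin gene, reached 14.7 CPM in M177. C134 also stood apart on markers of the proximal gut. The 6 genes of the duodenum identity list summed to 351 CPM there, against 690 to 1050 CPM in the other controls and 497 to 864 CPM in mutants. The proximal regulator gene Pdx1 was at 16 CPM in C134 against 48.3 to 73.7 CPM in the other controls, the iron exporter gene Slc40a1 at 24.1 against 195 to 512 CPM and the regulator gene Onecut2 at 121 against 230 to 240 CPM. Gata4, another proximal regulator gene, was at 172 CPM in C134 and 178 to 191 CPM in the other controls. In C134 the low pancreas share therefore cannot be told apart from these other differences, and their part in the results was not tested.

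**Figure D1:**
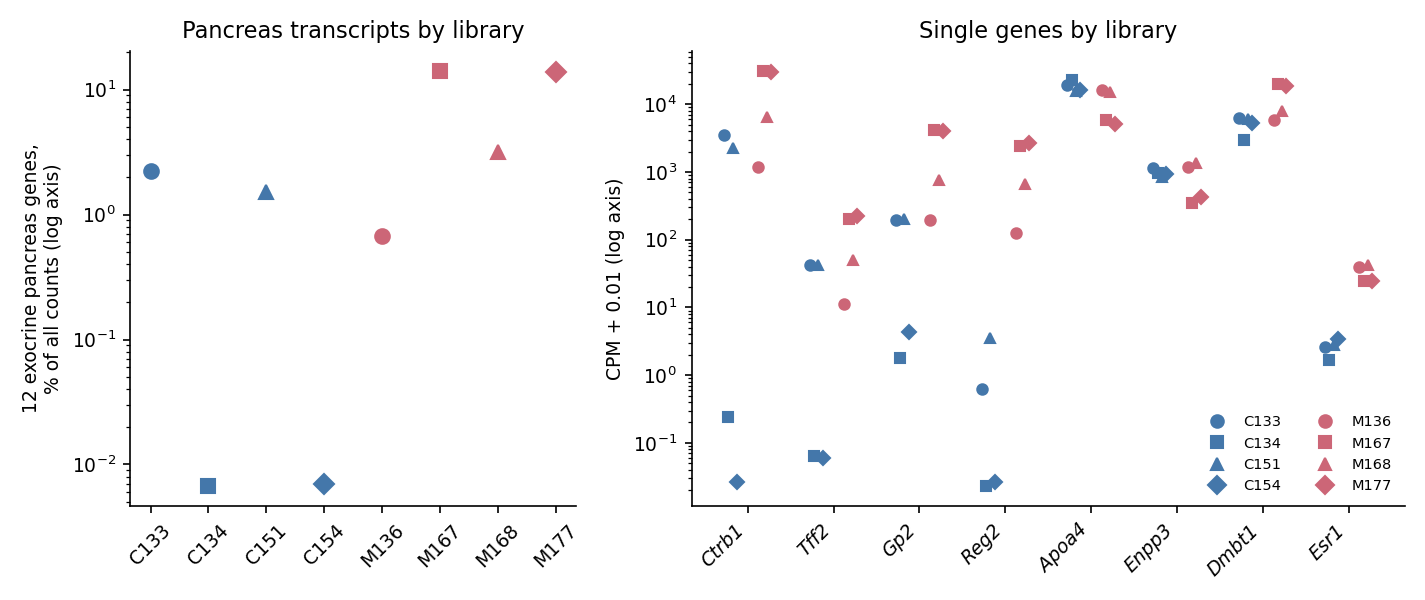
Left, the share of all counts taken by 12 exocrine pancreas genes in each library (percent, log axis). Right, levels of 8 genes in each library (CPM + 0.01, log axis), with controls in blue and mutants in red and a symbol for each mouse. Ctrb1, Tff2 and Gp2 follow the pancreas share, Apoa4 and Enpp3 are lowest in M167 and M177, and Esr1 is higher in all 4 mutants than in any control.

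Over all genes, 606 rose (3.44% of the genes tested) and 900 fell (5.11%), together 8.55%. With no regard to the test, all 4 mutants lay above all 4 controls for 8.61% of genes and below them for 10.2%. To set genes that move with pancreas tissue apart, each gene was given a tracking value, the correlation of its log2 CPM with the pancreas score after the genotype means were removed. It is a description over 8 libraries that share the depth and scaling of the score. The score was 9.86, -1.86, 9.29 and -3.09 in C133, C134, C151 and C154. In M136, M167, M168 and M177 it was 7.99, 12.48, 10.36 and 12.46. Its spread within a genotype was thus mostly that of the controls, so the order of the mutants weighs little in the tracking value. The low controls C134 and C154 also had the most Cr2, and the value cannot tell these differences apart. A tracking value of at least 0.8 was held by 230 genes (1.31%), of which 5 rose and 6 fell, and a value of at most -0.8 by 0.948% of genes, of which 3 rose and 17 fell. Such variation within a genotype widens the error of the test for these genes. A second description used the mutants alone. In 237 genes (1.35%) M167 and M177 were both at least 2-fold above M136 and M168, and 15 of these rose and 3 fell. In 72 genes (0.409%) both were at least 2-fold below, with 1 rise and 1 fall.

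Among the genes that track the pancreas, Reg2, a regenerating protein gene of acinar cells, had the largest rise. It stood at 0.607, 0.0134, 3.54 and 0.0167 CPM in C133, C134, C151 and C154 and at 125, 2380, 659 and 2690 CPM in M136, M167, M168 and M177. Every mutant was above every control, and the order of the mutants was that of their pancreas shares or close to it. Its log2 fold change was 10.47 (SE 2.19, adjusted p = 0.0388, tracking value 0.90) and 7.47 with the pancreas score as a covariate (adjusted p = 0.0192), while the call ended without any 1 of the 4 controls or of M167, M168 and M177, with an adjusted p of up to 0.115. Kcnq1, a potassium channel gene, rose from 56.5 ± 8.39 to 83.7 ± 9.05 CPM (SD, n = 4 in each group throughout) with a tracking value of 0.90, and missed the threshold with the covariate (adjusted p = 0.261) and without C133, C134, C154, M167 or M177 (up to 0.0747). Rgl2 and Hs2st1 rose by 0.45 and 0.32 with tracking values of 0.80 and 0.83, and both also missed it with the covariate (adjusted p = 0.33 and 0.342) and without any 1 control, M167 or M177 (up to 0.112), Hs2st1 without M168 too (0.0667). Beside these, Gm38351 rose from 0.0939 ± 0.0229 to 0.276 ± 0.00793 CPM (tracking value 0.85), a call that ended without any 1 control or M177 (adjusted p up to 0.0725).

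Some markers used for gut cells moved with the pancreas as well. Tff2, a mucin-associated trefoil gene listed for Brunner glands, stood at 42.9, 0.0536, 42.5 and 0.0502 CPM in C133, C134, C151 and C154 and at 11.4, 202, 50.8 and 222 CPM in M136, M167, M168 and M177 (tracking value 0.99). Gp2, a zymogen granule protein that also marks M cells, was chosen after its values were seen. It stood at 197, 1.8, 200 and 4.35 CPM in those controls and at 196, 4220, 760 and 4040 CPM in those mutants (tracking value 0.95). The summed level of the M cell list, 61.1 to 275 CPM in controls and 240 to 4270 CPM in mutants, was highest in M167 and M177, as Gp2 itself was. The other 5 genes of that list had negative log2 fold changes (list median -0.31). Of these 1 fell, Tnfrsf11a, the receptor gene through which M cells are induced (by 0.62, adjusted p = 0.0351), with overlapping groups. That call ended with the pancreas covariate (adjusted p = 0.0824), without M167 and M177 (0.12) and without C134 and C154 (0.0718). It also ended without C133, C151, C154, M136 or M167 alone (up to 0.103). Neither Tff2 nor Gp2 passed the test (adjusted p = 0.421 and 0.173).

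Calls were then required to pass in 3 further fits: with the pancreas score as a covariate, without M167 and M177, and without C134 and C154. The first kept 38 rises and 185 falls, the second 109 and 282, and the third 32 and 152. In all 3 fits 22 rises (0.125% of the genes tested) and 115 falls (0.653%) were kept, and 18 and 91 of these were at least 2-fold. Of the 115 falls, 26 were genes of the enteroendocrine lists. The score overlaps with genotype and the other fits have fewer libraries, so a lost call does not show that a gene belongs to the pancreas.

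**Figure D2:**
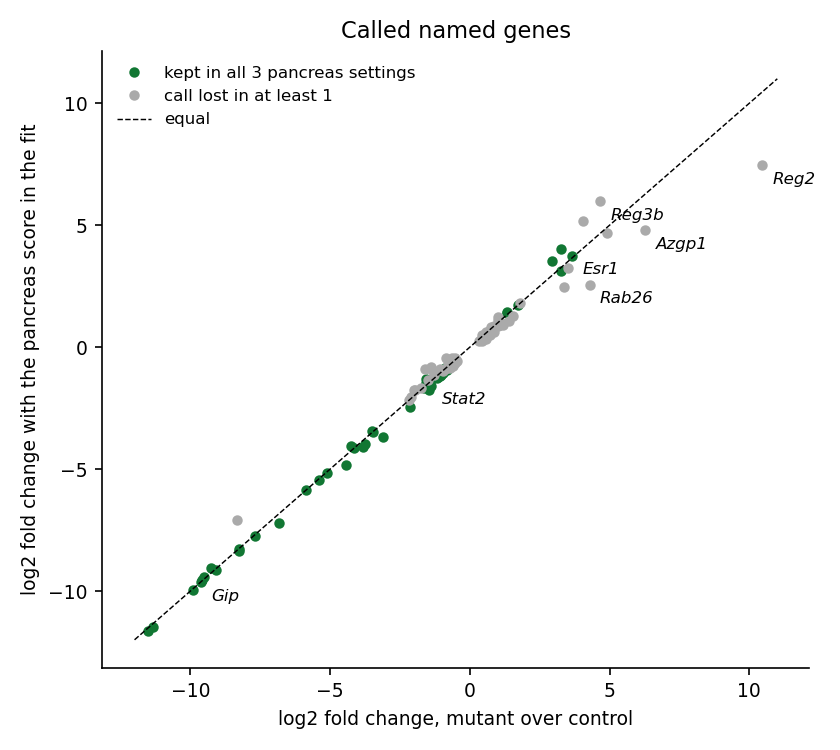
Log2 fold change of mutant over control (x axis) against the same with the pancreas score in the fit (y axis), for named genes that passed the test. Green points kept their call in all 3 pancreas settings, grey points lost it in at least 1, and the dashed line marks equal values. Reg2, Azgp1 and Rab26 lie below the line, whereas the falls of enteroendocrine genes such as Gip lie on or near it.

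The targeted gene checked the labels. Neurog3 (ENSMUSG00000044312) stood at 2.16, 2.35, 2.19 and 2.06 CPM in the 4 controls and at 0, 0.0204, 0 and 0 CPM in M136, M167, M168 and M177, where the single count was in M167. The ratio of control to mutant counts was 455, with a 95% counting interval of 81.2 to 18000, and the log2 fold change was -8.28 (adjusted p = 6.11e-06). Counting intervals and floors cover counting error only.

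Genes of the enteroendocrine lineage were among the largest falls. Of 12 hormone and hormone-synthesis genes tested 8 fell and none rose, of 15 regulators 12 fell, of 21 granin and secretory genes 11 fell and of 14 nutrient and hormone receptors 6 fell, with none rising. The medians of these lists were -4.16, -3.81, -0.80 and -0.52, against 0.02 over all genes. All but 1 of the 8 hormone falls and 10 of the 12 regulator falls were kept in the 3 pancreas settings, but only 5 of the 11 granin and secretory genes.

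The promoters of a pair of hormone genes, Cck and Sct, are shown because the regulator Neurod1, which fell here, binds E-box motifs. They are the 250 bases before the start of the gene in RefSeq on GRCm38.p6, at chr9:121495695-121495944 and chr7:141279134-141279383, both on the minus strand and written 5′ to 3′ along the gene. Capitals mark the motif CAGATG, sought on both strands.
Cck: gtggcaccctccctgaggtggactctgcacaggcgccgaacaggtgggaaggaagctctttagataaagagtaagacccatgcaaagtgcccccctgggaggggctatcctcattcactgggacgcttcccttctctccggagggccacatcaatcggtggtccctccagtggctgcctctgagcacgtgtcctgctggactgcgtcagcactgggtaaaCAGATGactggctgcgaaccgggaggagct
Sct: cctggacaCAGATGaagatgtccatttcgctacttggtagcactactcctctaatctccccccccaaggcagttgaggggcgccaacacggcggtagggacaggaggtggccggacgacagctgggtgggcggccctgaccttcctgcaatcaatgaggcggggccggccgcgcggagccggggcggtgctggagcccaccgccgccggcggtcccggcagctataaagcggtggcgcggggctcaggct
The match began 30 bases before the start of Cck and 242 before that of Sct. In windows of 300 bases, which run 50 past the start, the motif was found in 6 of all 13 hormone genes with a window (46.2%) and in 4 of the 8 that fell (Cck, Ghrl, Sct and Tac1), in 1 of the 8 regulators that fell and had a window (Nkx2-2), and in 19.2% of the 27025 genes with a window.

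The hormones differed in how much message was left. Cck, which encodes the hormone that empties the gallbladder and curbs appetite, stood at 51.6, 42.3, 41.3 and 37.1 CPM in controls against 0.0512, 0, 0 and 0 CPM in mutants (ratio of counts 2970, 95% interval 1010 to 14400, adjusted p = 2.22e-07). Gip, the incretin gene of K cells, stood at 44.5 to 83.1 CPM in controls against 0.0512 to 0.123 CPM in mutants (log2 fold change -9.63, SE 0.30). Tph1, the first enzyme of serotonin synthesis, fell from 34.9 ± 3.54 to 0.0597 ± 0.0547 CPM. These genes were near the limit of detection in every mutant. Sct and Sst, the secretin and somatostatin genes, stayed well above it, at 1.39 to 2.42 and 2.86 to 4.78 CPM in mutants against 19 to 24.7 and 43.2 to 65.9 CPM in controls (log2 fold change -3.49, SE 0.20, and -3.74, SE 0.19). Tac1, the substance P gene, which enteric neurons also express, fell by 3.45 (SE 0.27). Sct, Sst and Tac1 were singled out after their values were seen, and the groups did not overlap for any hormone named here.

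**Figure D3:**
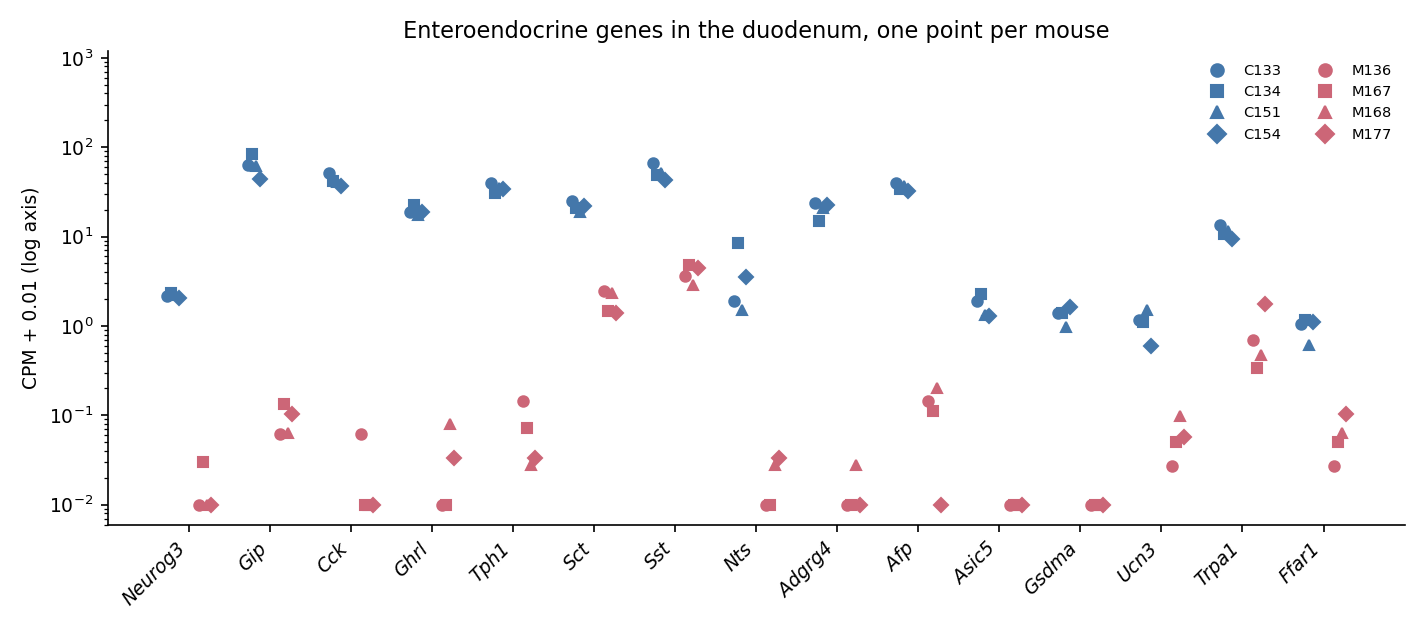
Levels of 15 genes in each mouse (CPM + 0.01, log axis), with controls in blue and mutants in red. Adgrg4, Afp, Asic5, Gsdma and Ucn3 are outside the usual endocrine lists. Points at the bottom of the axis are libraries with 0 counts, and Sct, Sst and Trpa1 stay at or above 0.327 CPM in all 4 mutants.

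Regulators and receptors of the lineage followed. Lmx1a, which acts in enterochromaffin cells, ranged from 1.87 to 2.41 CPM among controls without a single count in the mutants, at least 145-fold lower against a floor of 3 counts over the group. Neurod1, Fev and Rfx6, which act after Neurog3 in the same lineage, had log2 fold changes of -7.68, -5.88 and -5.10, all past the test. Of the sensors, the fatty acid receptor gene Ffar1 fell from 0.976 ± 0.253 to 0.0512 ± 0.0321 CPM. The calcium and amino acid receptor gene Casr fell from 0.654 ± 0.306 to 0.0727 ± 0.0345 CPM. Sstr5, a somatostatin receptor gene, stood at 0.335 to 0.63 CPM in controls and had 2 counts over the mutants, both in M168 (ratio 51.7, 95% interval 14 to 432).

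Genes outside the usual endocrine lists fell as far. Adgrg4, an adhesion receptor of enterochromaffin cells, stood at 14.9 to 23.9 CPM in controls with 1 count over the mutants (ratio 4170, 95% interval 748 to 165000). Asic5, an acid-sensing family ion channel gene, ranged from 1.29 to 2.29 CPM among controls with no mutant count at all, at least 120-fold lower. Afp, the alpha-fetoprotein gene, chosen after its values were seen, stood at 39.9, 34.1, 36.7 and 32.1 CPM in C133, C134, C151 and C154 and at 0.136, 0.102, 0.194 and 0 CPM in M136, M167, M168 and M177 (log2 fold change -8.26, SE 0.38, adjusted p = 4.67e-06). Gsdma, a gasdermin gene, ranged from 0.96 to 1.62 CPM among controls, again with none, at least 93.3-fold lower. Ucn3, the urocortin 3 gene, listed for pancreatic islets, fell from 1.08 ± 0.381 to 0.0483 ± 0.0296 CPM, with no overlap between the groups (tracking value 0.62). All 5 kept their calls in the pancreas settings.

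The rises that held in the pancreas settings were led by a pair of predicted genes at low level, named after their values were seen. Gm45063 and Gm5154 had no count in any control and stood at 0.572 to 0.681 and 0.258 to 0.597 CPM in mutants (adjusted p = 0.000612 and 0.00228). The next was Esr1. This oestrogen receptor gene stood at 2.56, 1.69, 2.79 and 3.4 CPM in C133, C134, C151 and C154 and at 39.4, 24.4, 42.6 and 24.8 CPM in M136, M167, M168 and M177, and every mutant, with the least or the most pancreas RNA, was above every control (log2 fold change 3.65, SE 0.27, adjusted p = 0.000175). With the covariate it was 3.75, and its adjusted p was at most 0.00246 under every alternative run. Only the mutants carried CreERT2, which contains part of an oestrogen receptor, and whether its reads were counted under Esr1 was not tested. Cfap61, which encodes a part of motile cilia, averaged 0.206 ± 0.0669 CPM in controls and 1.98 ± 0.776 CPM in mutants (adjusted p at most 0.0203). Rbm3, an RNA-binding protein gene induced by cold, and Lonrf3, a ring finger gene, were chosen after their values were seen. Rbm3 stood at 7.22 to 7.87 CPM in controls and 16.1 to 21.7 CPM in mutants (log2 fold change 1.33, SE 0.12), and Lonrf3 at 1.59 to 1.89 and 5.27 to 6.62 CPM (1.72, SE 0.15).

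The other large rises were less steady. Reg3b, an antimicrobial lectin gene, stood at 32.4, 52.4, 26.8 and 152 CPM in C133, C134, C151 and C154 and at 823, 1030, 3110 and 1750 CPM in M136, M167, M168 and M177 (log2 fold change 4.67, SE 0.77, adjusted p = 0.0171). Its tracking value was -0.61, and its log2 fold change was 5.97 with the covariate. The call ended without C134 (adjusted p = 0.0619) and without M167 and M177 (0.113). Azgp1, a secreted glycoprotein gene, rose by 6.28, to 0.546, 5.84, 1.34 and 4.18 CPM in M136, M167, M168 and M177, and missed the threshold with the covariate (adjusted p = 0.132) and without C134 and C154 (0.14). Rab26 and C2cd4b had the same order of mutants, with M167 and M177 above M136 and M168, and Cpn2 had not: it was at 3.84, 3.76, 13.9 and 11.6 CPM. These 3 calls ended with the covariate (adjusted p = 0.202, 0.318 and 0.166) and without C133 or C151 (0.0516 to 0.0945), and for Rab26 and C2cd4b also without C134, C154 or M177 (0.0589 to 0.0926) and for Rab26 without M167 (0.0577). The immunoglobulin segments Igkv7-33 and Ighv7-1 rose by 4.89 and 4.05, with calls that ended when any 1 control other than C154, or M167 or M177, was left out (adjusted p up to 0.118). Igkv7-33 also lost its call without C154 (0.0522) and Ighv7-1 without M136 (0.0623), and reads of such segments may be split among near-identical copies.

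Paneth cells sit at the crypt base and secrete defensins, lysozyme and phospholipase. Of 9 Paneth cell genes tested 6 rose and none fell (median log2 fold change 0.74, and 0.76 in the 4 libraries with overlapping pancreas shares). With the covariate 3 of the 9 passed, without M167 and M177 4 did and without C134 and C154 3 did, and 2 passed in all of these. Pla2g2a, the secreted phospholipase gene, stood at 3.85 to 5.44 CPM in controls and 9.93 to 12.4 CPM in mutants (log2 fold change 1.31, SE 0.14, adjusted p at most 0.0125 over the alternatives). Defa22 stood at 0.641, 1.25, 0.889 and 1.69 CPM in controls against 6.09, 5.46, 11.8 and 11.3 CPM in mutants (log2 fold change 2.95, SE 0.36), and Defa21, which is outside the list, rose by 3.25 (SE 0.45). Both kept their calls, while Defa30, an abundant member, rose from 260 ± 24.3 to 434 ± 43.6 CPM and missed the threshold with the covariate (adjusted p = 0.0515) and without C134 and C154 (0.0552). Defensin copies are near-identical, so the level of a single member is uncertain. Mmp7, the protease that activates prodefensins, rose from 52.8 ± 14.2 to 106 ± 19.3 CPM, a call that ended without C134 (adjusted p = 0.0512) and without M167 and M177 (0.109).

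No member of the goblet cell list, which had 10 genes tested, or of the tuft cell list, also with 10, passed edgeR's quasi-likelihood test or limma-voom. At an unadjusted p under 0.05, and by DESeq2's Wald test, 3 goblet cell genes were higher and 1 tuft cell gene was lower. The goblet cell gene Zg16 stood at 2130 to 2740 CPM in controls and 2690 to 5100 CPM in mutants (adjusted p = 0.0706), and the tuft cell gene Dclk1 at 23.9 ± 1.23 and 25.1 ± 3.71 CPM (adjusted p = 0.73).

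Among absorptive genes the mutants were split. None of 10 enterocyte genes, 16 genes of fat uptake and chylomicron assembly, 13 genes of sugar digestion and transport and 12 villus tip genes passed edgeR's quasi-likelihood test or limma-voom, with medians of -0.38, -0.40, -0.05 and -0.35. In the 4 libraries with overlapping pancreas shares the medians were 0.05, 0.14, 0.14 and 0.33. At an unadjusted p under 0.05, 0, 3, 0 and 2 members were lower and 0, 0, 1 and 1 higher. DESeq2's Wald test called 1, 2, 0 and 2 members, all lower. The summed level of the villus tip list was 19300 to 27700 CPM in controls and 20800, 7200, 21100 and 7450 CPM in M136, M167, M168 and M177. Apoa4, the lipoprotein gene of fat-loaded enterocytes, stood at 19400, 23000, 15800 and 16500 CPM in C133, C134, C151 and C154 and at 16500, 5860, 15400 and 5080 CPM in M136, M167, M168 and M177. Enpp3, a villus tip ectoenzyme gene, stood at 855 to 1130 CPM in controls against 1200, 348, 1380 and 431 CPM in the same mutants. M167 and M177, the libraries with the most pancreas RNA, were below every control for both genes, whereas M136 and M168 were within or above the control range or, for Apoa4 in M168, just below it. The part of pancreas tissue in this split was not tested. Not all enterocyte genes were split in this way: Sis, the sucrase-isomaltase gene, stood at 8730 to 12400 CPM in controls and 10900 to 17000 CPM in mutants.

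Fatty acid oxidation had 4 of 16 genes lower and none higher (median -0.42, and -0.30 in the 4 libraries with overlapping pancreas shares). Cpt2, the inner carnitine palmitoyltransferase gene, stood at 228, 220, 232 and 186 CPM in controls and 148, 100, 131 and 115 CPM in mutants (log2 fold change -0.81, SE 0.14, adjusted p = 0.00811). Here all 4 mutants were below all controls, and the adjusted p was 0.0533 with the covariate and 0.0511 without C134 and C154. Cpt1a, Etfdh and Cyp4a10 fell by 0.53, 0.53 and 2.19, but their calls ended without C133, C151 or C154, and for the last 2 also without C134 (adjusted p up to 0.115). Each also missed the threshold without M167, and without M168 or M177 (adjusted p 0.0582 to 0.107), save that Etfdh passed without M168 and Cyp4a10 without M177. Me1, the malic enzyme gene that supplies NADPH for fat synthesis, stood at 87.5 to 129 CPM in controls and 19 to 65 CPM in mutants (log2 fold change -1.51, SE 0.35), a call that held without M136 or M167 but not without any other single mouse (adjusted p up to 0.111).

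Of 23 cholesterol synthesis genes 9 rose and none fell (median 0.53, and 0.54 in the 4 libraries with overlapping pancreas shares). Mvk, the mevalonate kinase gene, stood at 6.97, 6.93, 8.31 and 9.96 CPM in controls and 16.3, 12.4, 16.2 and 19 CPM in mutants (log2 fold change 0.99, SE 0.16, adjusted p = 0.00709). Lss, which closes the sterol ring, rose from 17.4 ± 2.69 to 34.5 ± 9.05 CPM. With the pancreas covariate 1 of the 23 genes passed, without C134 and C154 none did, by DESeq2's Wald test 15 did and with the smooth muscle score as a covariate 18 did. The sterol element TCACNCCAC was in 1 of 15 list members with a 300-base promoter window and in none of the 7 of these that rose. It was in 1.44% of all genes with a window. Of sterol transport genes 2 of 9 fell, against 5.11% of all genes: the sterol exporter gene Abcg5 (by 0.70) and the oxysterol receptor gene Nr1h3 (by 0.63). The Abcg5 call ended without any 1 control or without M167 (adjusted p up to 0.0973), and that of Nr1h3 without C133, M167 or M177 (up to 0.0609).

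A minority of genes of cell growth and division rose. Of 16 ribosome biogenesis genes 7 rose and none fell (median 0.53), of 20 DNA replication genes 2 rose and of 18 mitosis genes 3 rose, again with none lower (medians 0.27 each). Over all genes tested 3.44% rose, and single calls in a list are not read as a change of the list. Polr1b, a subunit of RNA polymerase I, stood at 16.3 to 19.5 CPM in controls and 24.5 to 31.2 CPM in mutants (log2 fold change 0.61, SE 0.11, adjusted p = 0.00875, and 0.115 with the covariate). Npm1, a nucleolar protein gene, rose from 69.1 ± 4.64 to 104 ± 13.9 CPM, with a call that ended without C133, C134 or C151 (adjusted p up to 0.0549). Pole, a replicative polymerase gene, rose by 0.62, a call that ended without C134 (0.055) or C151 (0.0521). No ribosome biogenesis, replication or mitosis gene passed with the covariate. Of 10 crypt stem cell genes 1 rose, Znrf3, a Wnt receptor ligase gene (by 0.44, tracking value 0.80, adjusted p = 0.376 with the covariate), and its call held without M136 but not without any other single mouse (0.0596 to 0.115).

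Genes of antigen presentation and of the interferon response were lower in mutants. MHC class II presentation had 8 of 10 genes lower and none higher (median -1.15), and 6 of the 8 kept their calls in the pancreas settings. H2-Ab1 stood at 239, 204, 249 and 218 CPM in C133, C134, C151 and C154 and at 108, 92, 110 and 99.8 CPM in M136, M167, M168 and M177 (log2 fold change -1.15, SE 0.11, adjusted p = 0.000322), and Cd74, the invariant chain gene, singled out after its values were seen, at 583 to 840 and 306 to 368 CPM. MHC class I presentation had 11 of 17 genes lower (median -0.62), with 4 kept: the peptide transporter genes Tap1 and Tap2 and the immunoproteasome genes Psmb8 and Psmb9. Tap1 stood at 45.6 to 62.6 CPM in controls and 24.3 to 27.4 CPM in mutants (log2 fold change -1.06, SE 0.11, adjusted p = 0.000617). Interferon response genes were lower in 12 of 24 cases (median -1.21), with 5 kept.

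Stat2, a subunit of the factor that drives interferon genes, stood at 52, 43.5, 53.3 and 37.3 CPM in controls against 19.2, 17.2, 16.5 and 18 CPM in mutants (log2 fold change -1.39, SE 0.12, adjusted p = 0.000259). Gbp2, an interferon-induced GTPase gene, fell from 35.7 ± 2.69 to 17.9 ± 2.65 CPM. Ifit3, an antiviral effector gene singled out after its values were seen, stood at 13.7 to 21.8 CPM in controls and 2 to 6.08 CPM in mutants (log2 fold change -2.15, SE 0.31). With the covariate the log2 fold change of Stat2 was -1.58, and its adjusted p was at most 0.00429 under every alternative.

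The promoters of Ifit3 and Stat2 are shown because that factor binds the interferon-stimulated response element. They are the 250 bases before the gene start in RefSeq on GRCm38.p6, at chr19:34583279-34583528 and chr10:128270248-128270497, both on the plus strand and written 5′ to 3′. Capitals mark matches to its core, GAAA, any 2 bases and GAAA again, sought on both strands and found here on the opposite one.
Ifit3: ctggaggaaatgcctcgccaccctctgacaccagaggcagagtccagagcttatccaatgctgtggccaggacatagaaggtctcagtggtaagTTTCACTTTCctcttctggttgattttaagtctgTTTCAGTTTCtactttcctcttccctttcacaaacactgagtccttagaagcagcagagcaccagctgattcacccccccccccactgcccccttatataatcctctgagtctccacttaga
Stat2: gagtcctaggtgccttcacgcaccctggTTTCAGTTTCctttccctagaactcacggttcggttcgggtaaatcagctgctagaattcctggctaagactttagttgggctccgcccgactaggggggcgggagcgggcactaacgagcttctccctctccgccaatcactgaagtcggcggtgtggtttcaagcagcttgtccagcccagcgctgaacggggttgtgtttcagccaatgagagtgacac
The matches began 156 and 122 bases before the start of Ifit3 and 222 before that of Stat2. In 300-base windows the motif was in 11 of the 17 interferon genes with a window (64.7%) and 5 of the 9 that fell, in 4 of 14 MHC class I genes, in none of 7 MHC class II genes, and in 3.99% of the 27025 genes with a window.

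Immune cell markers moved beside these groups. Of 13 macrophage and dendritic cell genes 9 fell and 1 rose, and the summed level of the list was 389 to 449 CPM in controls and 264 to 334 CPM in mutants. C1qb, a complement gene of tissue macrophages, stood at 42.6, 41.4, 42 and 41.9 CPM in controls and 26, 24.3, 25.6 and 25.9 CPM in mutants (log2 fold change -0.72, SE 0.08, adjusted p = 0.000773), a narrow spread within each genotype. Flt3, a receptor gene of dendritic cells, fell from 4.04 ± 0.54 to 1.51 ± 0.109 CPM, and 4 of the 9 falls (Adgre1, C1qa, C1qb and Flt3) were kept in the pancreas settings. Cd163, a scavenger receptor gene and the only member that rose, rose from 2.9 ± 0.541 to 6.1 ± 2.34 CPM (adjusted p = 0.0397), with overlapping groups, and its call held without M168 but not without any other single mouse (0.0588 to 0.105). No marker of this list was at 0 counts, and its part in the lower MHC class II levels was not tested.

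Lymphocyte genes were less stable. Of 12 T cell and intraepithelial lymphocyte genes 6 fell and none rose (median -0.87), but none passed in any of the 3 pancreas settings. Trac, the T cell receptor alpha constant gene, stood at 8.64 to 12.7 CPM in controls and 3.54 to 6.65 CPM in mutants (log2 fold change -1.27, SE 0.22, adjusted p = 0.00875, and 0.0507 to 0.0955 in the pancreas settings). Itgae, the integrin that tethers these cells to epithelium, fell by 0.88, a call that ended without C134, C151, C154, M167 or M177 (adjusted p up to 0.0786). Ltb, a lymphotoxin gene of follicles, stood at 1.82, 3.53, 1.76 and 4.2 CPM in C133, C134, C151 and C154, highest in the 2 controls with Cr2, and at 0.634 to 1.45 CPM in mutants. Its call ended without C134, C154, M167 or M177 (up to 0.0733). None of 7 B and plasma cell genes passed edgeR's quasi-likelihood test or limma-voom (Igha 3940 ± 716 against 2880 ± 1250 CPM), while 3 were lower at an unadjusted p under 0.05 and 2 by DESeq2's Wald test. The mucosal mast cell protease genes Mcpt1 and Mcpt2 fell by 1.98 and 2.01, with adjusted p of 0.0697 and 0.0529 with the covariate, and their reads may be shared between near-identical copies.

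In the wall, Col3a1, a fibrillar collagen gene, stood at 180, 138, 161 and 206 CPM in controls and 83.1, 68.5, 57.4 and 80.7 CPM in mutants (log2 fold change -1.24, SE 0.16, adjusted p = 0.00182). It was the only 1 of 8 fibroblast and matrix genes that passed, where 5.11% of all genes fell. The call of Col3a1 was kept under every alternative (adjusted p at most 0.0221). Col18a1, a basement membrane collagen gene, was chosen after its values were seen. It stood at 80.3 to 99.9 CPM in controls and 30.2 to 37.1 CPM in mutants (log2 fold change -1.41, SE 0.11). Hsd17b6 and Apoe, likewise chosen, which encode a steroid and retinol dehydrogenase and a lipoprotein, fell by 1.56 and 0.97. All 4 were kept in the pancreas settings. Of 10 smooth muscle genes 1 rose, Acta2 (by 0.52, a call that held without M168 or M177 but not without any other single mouse, adjusted p up to 0.11), against 3.44% of all genes. The summed level of the smooth muscle list was 1210 to 1580 CPM in controls and 1200 to 2050 CPM in mutants.

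Clock and hormone signalling genes changed singly. Nr1d1, the REV-ERB alpha repressor gene of the core clock, stood at 113, 85.7, 82.7 and 132 CPM in controls and 33.9, 46.4, 18.2 and 23.9 CPM in mutants (log2 fold change -1.76, SE 0.30, adjusted p = 0.0139). Nfil3, a repressor of clock output, stood at 2.53 to 4.89 CPM in controls and 8.8 to 19.6 CPM in mutants (log2 fold change 1.79, SE 0.27, adjusted p = 0.0064). With the covariate the adjusted p of these genes was 0.101 and 0.064. Cry2, another core clock repressor gene, rose by 0.71, a call that ended without C133, C134 or M177 (0.0535 to 0.069). The labels used here state no hour of sampling, so a difference in hour between the groups cannot be told apart from genotype in these values. Igfbp3, a binding protein of insulin-like growth factors, fell from 92.2 ± 6.54 to 46.9 ± 9.36 CPM (adjusted p = 0.00423, and 0.0569 without C134 and C154). Reg4, a lectin gene of enteroendocrine and other secretory cells, stood at 96.3 to 135 CPM in controls and 18.1 to 42.3 CPM in mutants (log2 fold change -2.12, SE 0.28), and missed the threshold without M167 and M177 (0.0859).

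**Figure D4:**
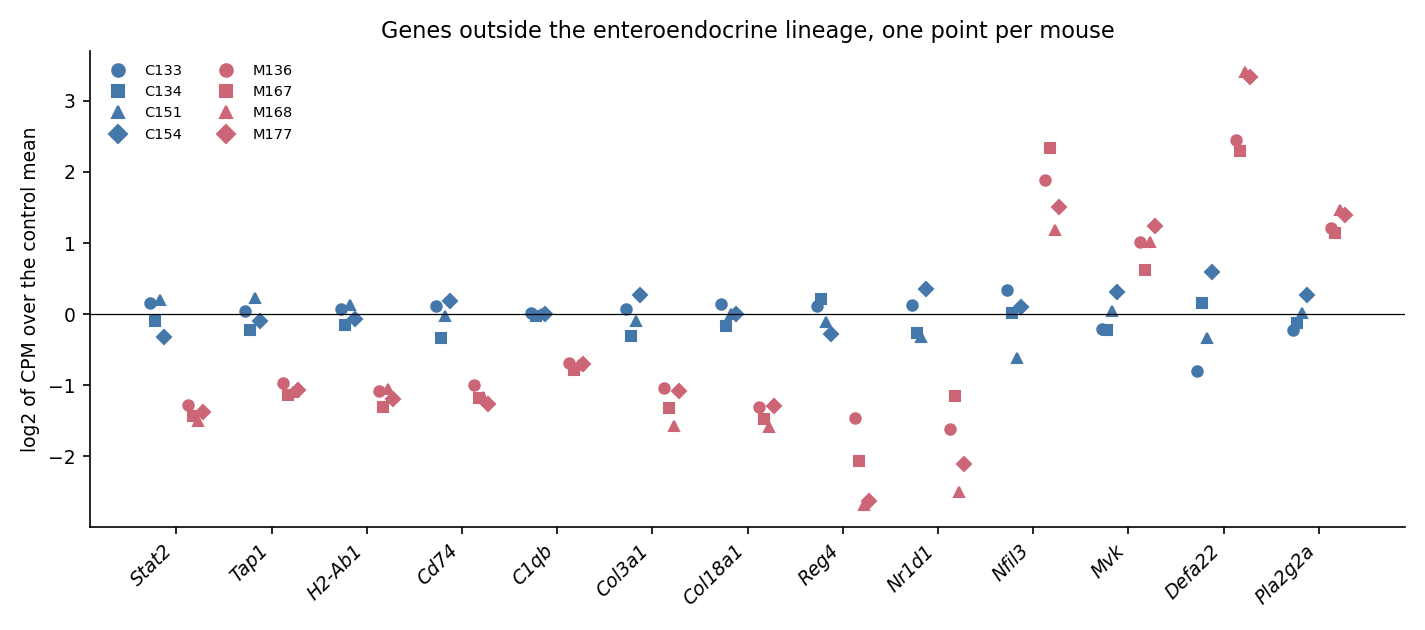
Log2 of CPM over the control mean for 13 genes outside the hormone lists, one point per mouse with controls in blue and mutants in red. The groups do not overlap for any gene drawn, and C1qb keeps within 41.4 to 42.6 CPM in controls and 24.3 to 26 CPM in mutants. The genes were picked by hand from those named in the text, so the lack of overlap does not speak for their lists. Over all genes tested, all mutants lay above all controls for 8.61% and below them for 10.2%.

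**Figure D5:**
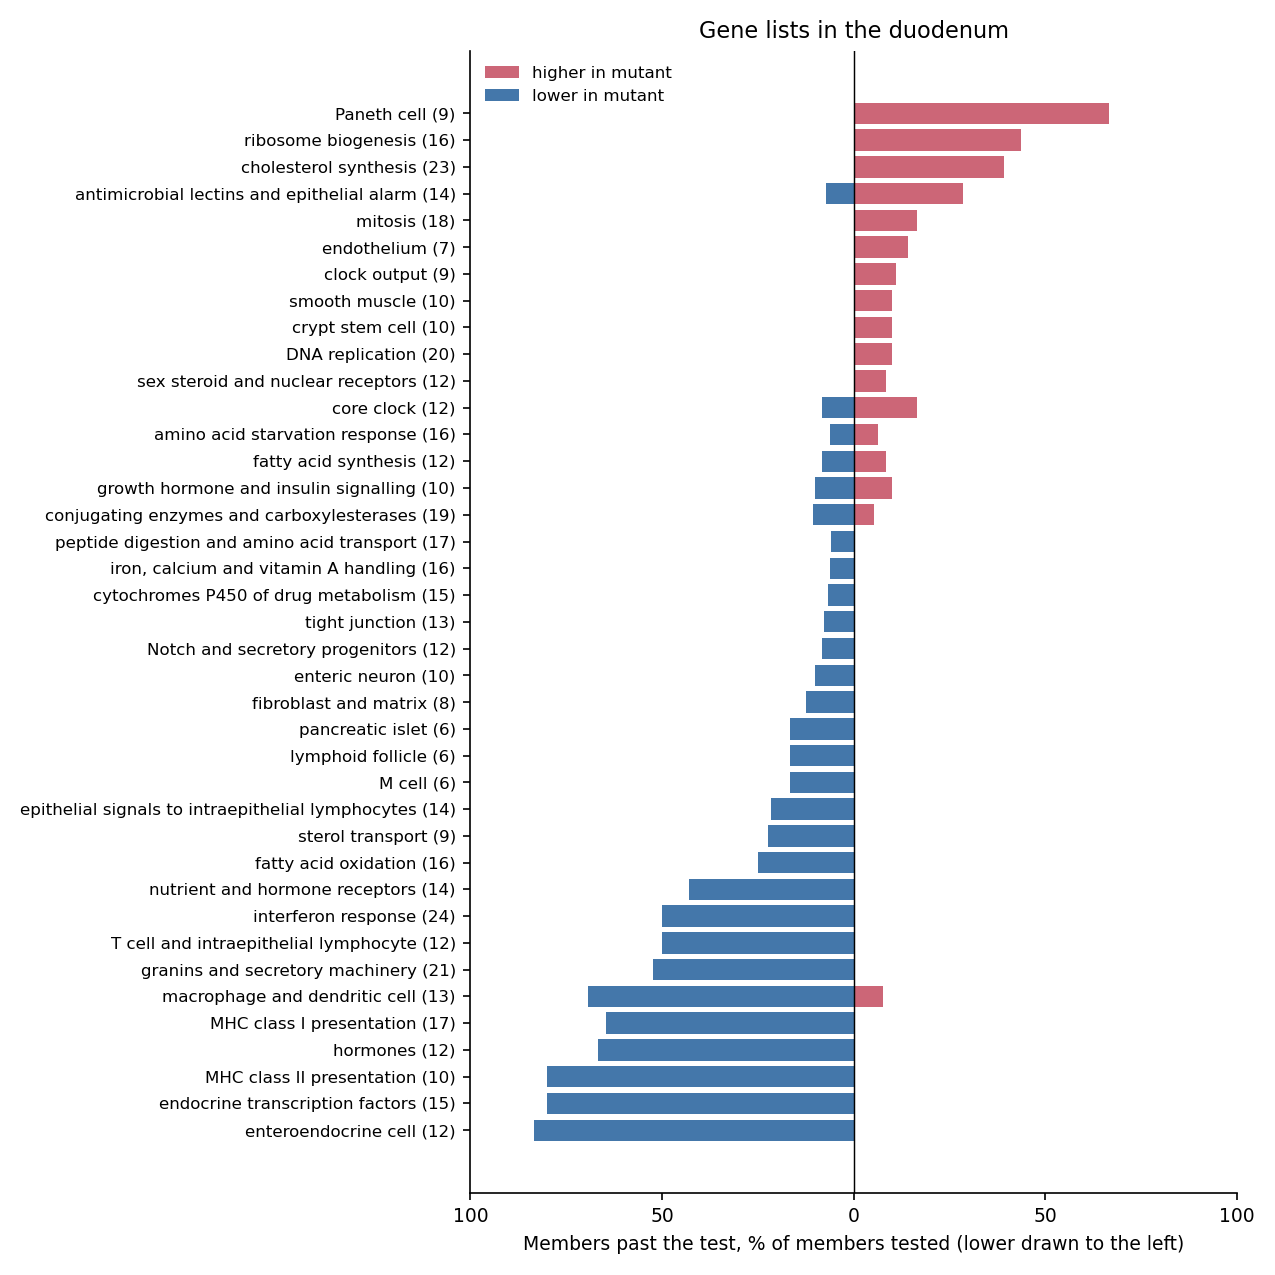
Share of the tested members of each list that rose (red, to the right) or fell (blue, to the left) in mutant duodenum, in percent, with the number tested in parentheses, for lists with at least 6 tested and at least 1 called. Paneth cell, ribosome biogenesis and cholesterol lists extend to the right, and enteroendocrine, MHC and interferon lists to the left.

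Where the duodenum differed from the ileum was tested with the genotype by tissue term in a fit to all 16 libraries, which 1734 of 19289 genes passed (8.99%), and 4027 with the mouse as a replicate block. Of the falls, Trpa1, the irritant channel gene of enterochromaffin cells, stood at 9.27 to 13.4 CPM in control and 0.327 to 1.76 CPM in mutant duodenum (log2 fold change -3.83), while in the ileum it rose by 0.82 (adjusted p of the difference 0.000747). Col18a1 fell in the duodenum and was at 0.22 in the ileum (0.000239). Reg4 had 1.04 and Me1 0.81 in the ileum against falls in the duodenum (0.00726 and 0.0154), and Cpt2 had 0.16 (0.0154). Nfil3 and Defa22, which rose in the duodenum, had 0.17 and 0.00 in the ileum (0.0154 and 0.00869). Of the 10 MHC class II genes 7 passed the term, all lower in the ileum, with H2-Ab1 falling by 2.46 there and having a log2 fold change of -1.15 in the duodenum (0.0297). For Stat2, C1qb and Cck the difference did not pass (0.302, 0.683 and 0.0989), which does not show that the responses were alike.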

How the data were processed

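Total RNA of each tissue piece was sequenced with a stranded total RNA kit in 16 libraries, of which the 8 from duodenum were used for the main comparison and all 16 for the difference between tissues. The deposited table holds the authors' raw read counts per gene, not normalised. Per the submitters' processing notes the tools were STAR 2.5.3a, HTSeq 0.6.1p1, Bowtie2 2.2.8 and cutadapt 1.10, with the mm39 build. With the annotation release and the counter's strand setting not given in the sources used here, reads of overlapping or antisense genes may be shared, as may those of near-identical copies (defensins, Reg genes, mast cell proteases, immunoglobulin segments and pancreatic proteases). Symbols came from GENCODE M21 and matched 52083 of 55359 identifiers, and the 3276 without one held 1.12% of duodenum counts.

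Counts were scaled by TMM over the 8 libraries, filtered with filterByExpr and tested with edgeR 4.0.16 (quasi-likelihood F test, Benjamini-Hochberg adjustment, threshold 0.05) in R 4.3.3, with genotype as the only term. CPM are TMM-scaled, and log2 CPM used a prior count of 2. Ratios for genes with 1 to 3 mutant counts have exact 95% intervals, and folds for genes without mutant counts use a floor of 3 counts over the group. Alternatives were DESeq2 1.42.0 (size factors, Wald test), limma-voom 3.58.1, other count filters, the pancreas or the smooth muscle score as a covariate, pancreas genes removed, libraries left out, and all 16 libraries in 1 fit. The fits were tested on simulated data. The simulated counts held no pancreas variation between mice, so that test cannot speak for the fits where such variation is present.

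The 61 gene lists (746 of 748 members found) and the comparison itself were chosen with earlier results of these data known. Genes were named by rule: the 10 largest rises and falls at 1 CPM or more, up to 8 genes that track the pancreas, up to 4 called members a list by adjusted p or 2 without calls, and 8 genes of the tissue difference. Some genes that meet it are not reported here. Others were named after their values were seen: Afp, Rbm3, Lonrf3, Col18a1, Gp2, Hsd17b6, Apoe, Ifit3, Cd163, Sct, Sst, Tac1, Cd74, Gm45063 and Gm5154. Control and mutant mice are different animals, while duodenum and ileum libraries share mice. Residuals of the same mouse in the 2 tissues correlated at 0.281 to 0.567, above the best other mouse (0.13 to 0.313) in every case, so the mouse pairs the tissues.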

Additional observations from a re-analysis of the deposited data

Results flagged for a closer look

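In 8 groups of 4 mice 1 library lay far from the other 3, with the gap to its nearest neighbour divided by the range given here. Chance alone flags some groups at this 95% level. In controls these were Ighv7-1 in C154 (7.53 CPM, next 1.83, ratio 0.864), Reg2 in C151 (3.54 CPM, next 0.607, ratio 0.832), Onecut2 in C134 (121 CPM, next 230, ratio 0.917), Top2a in C151 (199 CPM, next 180, ratio 0.898) and Cldn15 in C154 (544 CPM, next 647, ratio 0.869). In mutants they were Acaca in M177 (22.9 CPM, next 18.6, ratio 0.949), Gstk1 in M136 (36.8 CPM, next 25.1, ratio 0.917) and Kif11 in M177 (81.9 CPM, next 61.7, ratio 0.97).

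The genotype effect differed between duodenum and ileum by the genotype by tissue term of edgeR's quasi-likelihood test for 44 of 160 named genes, against 8.99% of all genes tested. Many of them were named for a change in the duodenum, so this count is not a rate of tissue difference. The adjusted p of the term is given after the log2 fold changes in duodenum and in ileum. The libraries of both tissues come from the same mice. With the mouse as a replicate block all 44 passed as well, and 22 further named genes did. Of these 22, the blocked adjusted p was 0.0176 for Rab26, 0.0256 for C2cd4b, 0.0358 for Lmx1a, 0.0236 for Apoa4, 0.0457 for Defa30, 0.0341 for Mmp7, 0.0384 for Dclk1, 0.0122 for Trac, 0.0231 for Igha, 0.0121 for Lss, 0.0173 for Abcg5, 0.0157 for Kif11, 0.0257 for Tap2, 0.0466 for Afp and 0.0339 for Apoe.

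Of the enteroendocrine genes, Trpa1 was at -3.83 and 0.82 (0.000747), Sct at -3.49 and -1.86 (0.00364), Sst at -3.74 and -2.51 (0.00555), Tac1 at -3.45 and -0.98 (0.0029) and Ffar1 at -4.26 and -7.03 (0.032). Gsdma, which is outside the endocrine lists, was at -9.27 and -2.51 (0.00917). Of secretory, antimicrobial and stem cell genes, Reg4 was at -2.12 and 1.04 (0.00726), Reg3b at 4.67 and 0.27 (0.0176), Defa21 at 3.25 and -0.05 (0.0134), Defa22 at 2.95 and 0.00 (0.00869), Fcgbp at 0.40 and -0.64 (0.0472) and Znrf3 at 0.44 and -0.05 (0.0429).

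Immune genes differed mostly by a larger fall in the ileum. H2-Eb1 was at -1.15 and -2.28 (0.0288), H2-Ab1 at -1.15 and -2.46 (0.0297), H2-Aa at -1.07 and -2.49 (0.0312), H2-DMa at -1.04 and -2.34 (0.0258), Cd74 at -1.15 and -2.65 (0.0158) and Psmb8 at -1.08 and -2.27 (0.0377). Cd4 was at -0.70 and -1.59 (0.043), Itgae at -0.88 and -1.91 (0.0299) and Jchain at -0.41 and -1.69 (0.0429).

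Of metabolic and stress genes, Cpt2 was at -0.81 and 0.16 (0.0154), Cpt1a at -0.53 and 0.26 (0.0343), Etfdh at -0.53 and 0.23 (0.0278), Me1 at -1.51 and 0.81 (0.0154), Txnrd1 at -0.17 and 0.80 (0.0167), Trib3 at -1.34 and 1.23 (0.0357), Vldlr at 1.40 and 0.25 (0.0435), Ldha at -0.01 and 0.85 (0.0179) and Pkm at 0.16 and 0.88 (0.0329). Of clock and growth genes, Nfil3 was at 1.79 and 0.17 (0.0154), Cry2 at 0.71 and 0.00 (0.0386), Igf1r at 0.87 and -0.17 (0.0287) and Tgfa at -0.18 and 0.43 (0.0455).

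Of the remaining genes, Col18a1 was at -1.41 and 0.22 (0.000239), Col3a1 at -1.24 and -0.11 (0.035), Esr1 at 3.65 and 2.33 (0.0209), Lonrf3 at 1.72 and 0.73 (0.0167), Kcnq1 at 0.57 and -0.17 (0.02), Gm38351 at 1.55 and -0.20 (0.0231), Ret at -0.70 and 0.40 (0.0186) and Kit at 0.55 and -0.35 (0.0179). Cfap61 was at 3.27 (0.0158) and Gif at 2.04 (0.0386) in duodenum, and both were below the count filter of the separate ileum fit.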

How the results depend on the processing

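The counts of changed genes moved most with the pancreas settings, fewer libraries and the tool, and the cause was not tested. Against 606 higher and 900 lower genes, DESeq2's Wald test gave 1387 and 1585, the pancreas covariate 44 and 190, leaving out M167 and M177 140 and 305, leaving out C134 and C154 37 and 163, and leaving out all 4 of these 115 and 287. All 16 libraries in 1 fit gave 1202 higher, and the smooth muscle covariate 564 lower. Leaving out 1 mouse gave 124 (without C151) to 1025 (without M136) higher and 352 (without C151) to 1114 (without M136) lower. No call changed sign under these settings, which reuse libraries that made the calls. The share of lower genes among the calls, 59.8%, was 81.2% with the pancreas covariate and 53.3% by the Wald test. Of the called genes 31 tracked the pancreas score. That number was 4 at a tracking value of 0.9 in size, 20 by the order of the mutant libraries and 38 to 83 with 1 mouse left out. The 234 calls made with the pancreas covariate became 38 to 260 with 1 mouse left out. The 1734 genes that differed between tissues became 3199 by the Wald test, 4027 with the mouse as a replicate block and 184 to 2009 with 1 mouse left out. No paired analysis was possible within the duodenum because control and mutant mice share no number. Of 120 named genes that passed the test, 52 passed under every alternative run and 53 in the 3 pancreas settings. Over all genes 137 of the 1506 calls passed in these 3 settings. Named genes were mostly picked for large folds or small p, so their share does not stand for all calls. With 4 mice a group, a missed threshold does not show that a gene did not differ.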
